A study of Bubalus bubalis with 12 samples.

Results

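Histone H3 trimethylated at lysine 27 (H3K27me3) was compared between the sperm of 3 high-fertile (HF) and 3 subfertile (SF) water buffalo bulls, on the 6 arrays whose titles name H3K27, out of 12 arrays in the series. The other 6 arrays carry H3K4me2 from the same bulls. The HF bulls were numbers 2, 3 and 5 and the SF bulls numbers 1, 4 and 5, each with 1 array; HF5 and SF5 are different animals. All bulls gave cryopreserved semen, and all chromatin was cross-linked and cut with micrococcal nuclease before precipitation with an antibody to H3K27me3. The labels give the fertility class of each bull but no age, and how fertility was scored is not given in the sources used here. On every array the precipitated DNA carried Cy5 and the input DNA of the same bull carried Cy3, both after linker-mediated PCR, so dye and antibody were never exchanged. Values are log2 of ChIP divided by input, shifted so that the median probe of the array is at 0, and 1 unit is a doubling. They order loci within an array and say nothing of the absolute amount of the mark, and in bulk sperm fewer cells with the mark and less mark per cell cannot be told apart.

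H3K27me3 is written by Polycomb repressive complex 2, in which EZH2 is the methyltransferase and EED and SUZ12 are core partners, and it is read by CBX proteins of Polycomb repressive complex 1. In embryonic and somatic cells it covers CpG-rich promoters of silent developmental regulators, the HOX clusters among them. Most histones of mammalian sperm are exchanged for protamines, and in the species studied most closely the nucleosomes that stay are enriched at CpG islands, where H3K27me3 marks developmental genes.

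The array reads 60-base probes laid over cattle CpG islands, with neighbouring starts a median of 4 bases apart, so a gene is often read over a very short stretch. All stretches covered by the probes of 7 genes at the extremes of the HF and SF comparison are shown to make plain how little sequence each value rests on. They run 5′ to 3′ in ascending coordinates of the cattle build HGSC Btau_3.1, joined from the array's own probe sequences, and capitals mark CpG dinucleotides.
OXA1L, chr10:22340942-22341037: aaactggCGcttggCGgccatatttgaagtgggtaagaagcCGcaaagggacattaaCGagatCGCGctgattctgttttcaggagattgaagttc
MIR431, chr21:65866501-65866568: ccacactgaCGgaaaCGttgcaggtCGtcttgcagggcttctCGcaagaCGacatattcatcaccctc
EIF3D, chr5:80567871-80568074: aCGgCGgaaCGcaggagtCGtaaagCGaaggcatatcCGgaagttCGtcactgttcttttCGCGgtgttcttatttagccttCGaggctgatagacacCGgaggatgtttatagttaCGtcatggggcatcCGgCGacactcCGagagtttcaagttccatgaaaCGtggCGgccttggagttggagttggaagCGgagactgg
EIF3D, other stretch, chr5:80568103-80568182: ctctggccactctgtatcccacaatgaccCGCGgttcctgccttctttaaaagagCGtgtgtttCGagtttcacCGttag
RBMS1, chr2:37102298-37102365: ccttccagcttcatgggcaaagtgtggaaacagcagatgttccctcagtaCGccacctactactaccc
CCNA2, chr6:3380995-3381080: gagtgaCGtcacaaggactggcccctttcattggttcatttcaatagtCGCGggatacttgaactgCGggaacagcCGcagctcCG
EML5, chr10:103504470-103504578: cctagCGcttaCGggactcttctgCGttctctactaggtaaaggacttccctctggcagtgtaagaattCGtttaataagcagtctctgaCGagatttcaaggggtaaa
EML5, other stretch, chr10:103504579-103504638: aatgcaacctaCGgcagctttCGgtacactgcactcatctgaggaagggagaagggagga
TCTEX1D1, chr3:84267855-84267949: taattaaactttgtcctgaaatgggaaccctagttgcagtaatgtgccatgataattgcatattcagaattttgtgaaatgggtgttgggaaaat
These stretches held 6 CpGs in OXA1L, 5 in MIR431, 18 and 5 in EIF3D, 1 in RBMS1 and 6 in CCNA2. EML5 held 5 and 2, in stretches that adjoin without a gap and form 1 run of bases. TCTEX1D1 held 0, and the array lists its probes as promoter and not as island. The CCNA2 stretch holds the cyclic AMP response element TGACGTCA and the CCAAT box, read on both strands as CCAAT or ATTGG. Of 175844 different probes on the array, 0.183% hold the first and 8.10% the second. In CCNA2 they are in 2 and 6 of its 6 probes. These probes overlap within 86 bases and read the same sites again, so the counts are no enrichment. The second is also in 14 of 29 NGDN probes and 1 of 2 ZNF192 probes. Over the 26 genes at the extremes, the stretches of 1 gene hold the first and those of 3 genes the second. The probes of the 26 genes at the extremes had a median GC content of 50.3%, against 50.7% over all 6805 genes.

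Over 6805 genes with at least 2 probes, limma called 0 genes different between HF and SF at a Benjamini-Hochberg adjusted p of 0.05. At an unadjusted p under 0.05 there were 277 genes (4.07%), 152 higher in HF (2.23%) and 125 lower (1.84%). The HF share of these genes, 54.9%, was 43.9% when the ChIP channel was used without its input, 44.5% with slide as a random block, 44.2% without HF3 and also without SF4, and 63.2% without SF1, the highest of the alternatives. The groups did not overlap in 583 genes (8.57%), 310 with all HF bulls higher (4.56%) and 273 with all HF bulls lower (4.01%). The median absolute difference was 0.32 log2 units, and the 95% confidence interval of a gene reached a median of 1.10 units to either side. The same fit called 0 of 176392 probes, of which 7599 (4.31%) had an unadjusted p under 0.05 and 14144 (8.02%) did not overlap, and 0 of 23750 patches, runs of probes whose starts lie at most 200 bases apart, of which 992 (4.18%) had such a p and 1930 (8.13%) did not overlap. The genes below are those of smallest p whose groups do not overlap, so their separation comes from how they were chosen and is given as a description.

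**Figure D1:**
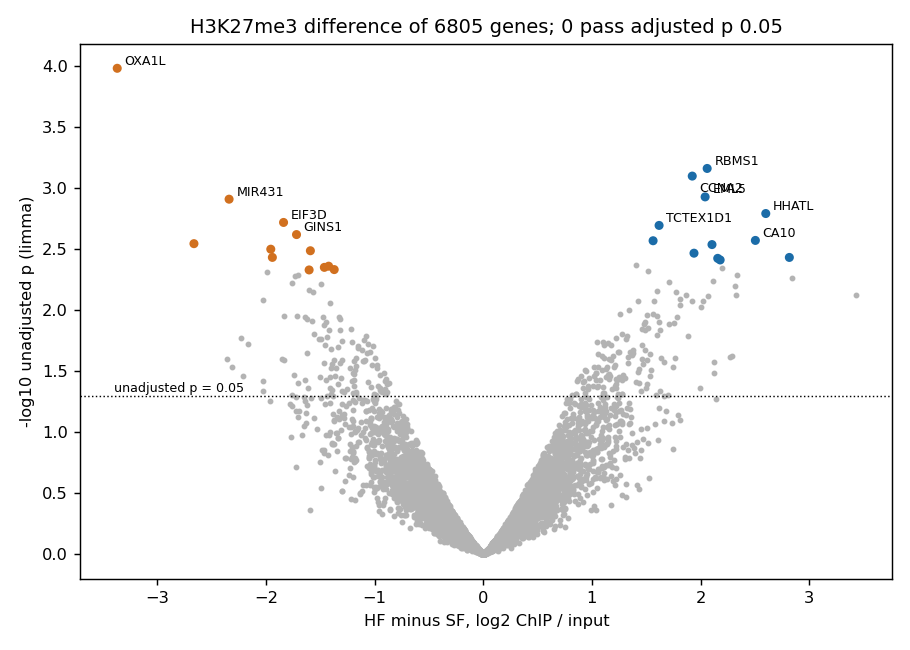
Each grey point is 1 of 6805 genes, with the HF minus SF difference in log2 ChIP over input on the x axis and minus log10 of limma's unadjusted p on the y axis; blue and orange points are the 12 genes listed in each direction. OXA1L stands alone at a difference of -3.37, and 0 genes pass an adjusted p of 0.05.

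The gene of lowest p had lower values in every HF bull than in any SF bull. OXA1L, an insertase of the inner mitochondrial membrane, stood at -1.34, -2.72 and -2.73 in HF2, HF3 and HF5 and at 1.30, 0.74 and 1.26 in SF1, SF4 and SF5. Its 3 probes gave differences of -2.60, -3.54 and -3.96 and overlap one another within 96 bases, so they are close to 1 reading. Within the slide shared by HF5 and SF1 the difference was -4.04, and among the other 4 bulls it was -3.03. Both had to be negative because the gene was chosen for groups that do not overlap. The split is therefore no check on the slide. The unadjusted p was 0.000104 and limma's adjusted p was 0.705, the lowest of all genes. EIF3D, a subunit of the translation initiation factor eIF3 that can bind mRNA caps, had -0.73, -0.22 and -1.01 in the HF bulls and 0.89, 1.01 and 1.65 in the SF bulls. All 38 of its probes were lower in HF on average, and in 30 of them the groups did not overlap. Its difference was -1.91 within the shared slide and -1.80 among the other bulls, with the sign again fixed by the choice. DNAJB9, a chaperone cofactor of the endoplasmic reticulum, had -1.22, -0.05 and -0.70 against 0.81, 0.95 and 1.07 over 3 promoter probes. In only 1 of these 3 probes did the groups not overlap.

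Genes of other roles had lower HF values as well. MIR431, a microRNA gene of the imprinted DLK1 to DIO3 region, had -0.92, -1.87 and -0.65 in HF and 1.85, 0.76 and 0.97 in SF bulls over 4 probes in 68 bases. GINS1, a subunit of the replicative helicase, had -1.28, -1.82 and -1.41 against -0.29, 0.52 and 0.41, and 6 of its 7 probes were lower in HF on average. SMYD1, a muscle histone methyltransferase, had -0.17, -1.61 and -1.95 against 0.44, 1.52 and 2.30. In GINS1 every HF bull lay below -1, while in SMYD1 HF2 lay nearer to SF1 than to the other HF bulls. CSNK2B, the regulatory subunit of casein kinase 2, had -0.07, -0.51 and -1.59 against 1.09, 1.07 and 1.55. NGDN, which binds the translation factor eIF4E, had -0.37, -0.91 and -0.33 against 0.84, 0.88 and 1.45, and all 28 of its probes measured on every array were lower in HF on average. In CSNK2B and NGDN every HF bull lay below 0 and every SF bull above it. The neuronal serpin gene SERPINI1 had 0.10, -0.18 and -0.61 against 1.47, 1.07 and 1.17. The groups overlapped in each of its 3 probes and stood apart only in their mean. LCORL, C5H12orf66 and FAM198B complete the 12 genes, with differences of -1.42, -1.94 and -1.37. Their groups did not overlap in 1 of 2, 8 of 12 and 6 of 7 probes. Among 2983 genes with at least 10 probes, of which 107 (3.59%) had an unadjusted p under 0.05 and 246 (8.25%) did not overlap, the rule added CHST3, a chondroitin sulfotransferase, at -1.23, -1.91 and -0.76 against 1.61, 0.22 and 0.24, and MLPH, the melanophilin of pigment granule transport, with a difference of -1.60.

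The higher values in HF sperm were led by RBMS1, an RNA-binding protein gene. RBMS1 had 0.40, -0.02 and 0.77 in the HF bulls and -1.93, -1.73 and -1.37 in the SF bulls over 3 probes in 68 bases. CCNA2, a cyclin needed for DNA replication and for entry into mitosis, had 1.25, 0.97 and 0.57 against -1.19, -0.84 and -0.95. Within its 86 bases the 3 probes of lower coordinate differed by 1.25, 1.20 and 0.84 and the other 3 by 3.33, 2.67 and 2.25, and the groups did not overlap in any of the 6. The probes that start at 3381000 and 3381012 share most of their bases and differed by 0.84 and 3.33. Its difference was 1.76 within the shared slide and 2.00 among the other bulls, with the sign fixed by the choice of the gene. EML5, a microtubule-binding protein gene, had 0.76, 1.42 and 0.61 against -1.42, -0.60 and -1.31, with no overlap of the groups in 12 of 12 probes. TCTEX1D1, a relative of dynein light chains, had 0.79, 0.81 and 0.83 against -1.18, -0.54 and -0.71, with the HF bulls close together. PCBD1, an enzyme of tetrahydrobiopterin recycling, had 0.60, 0.66 and 0.68 against -0.95, -1.26 and -0.54, with its HF bulls close together as well.

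In other genes of this direction 1 bull stood out. C1QTNF1, a secreted C1q and TNF-related protein gene with 30 probes, had 1.01, 0.58 and 1.99 in HF and -1.33, -1.16 and -0.25 in SF bulls. HHATL, a relative of the acyltransferase that modifies Hedgehog proteins, had 0.46, 1.09 and 2.56 against -1.49, -1.29 and -0.91. HF5 was the highest bull in both. CA10, a carbonic anhydrase relative, had 0.60, 2.28 and 1.41 against -0.21, -1.93 and -1.07, with HF3 highest and SF4 lowest. RUNDC3A, expressed mainly in neurons, had 1.19, 2.09 and 2.68 against -0.02, -0.11 and -2.37, so SF1 and SF4 lay near the array median and SF5 far below it. SLC6A2, the noradrenaline transporter, had 0.38, 1.40 and 1.82 against -1.82, -0.80 and -0.32. ZNF192, a zinc finger gene, had 0.68, 0.87 and -0.84 against -2.43, -1.79 and -1.54, with HF5 between the other HF and the SF bulls. FAM105B had 1.05, 0.96 and 2.38 against -0.19, -0.62 and -0.62, with HF5 highest. Across the 24 genes listed, 12 in each direction, absolute differences ran from 1.37 to 3.37, and limma's adjusted p was at least 0.705 in each.

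Single probes had a median absolute difference of 0.43 and a median 95% confidence interval of 1.53 units to either side. The probes given here are the 3 of smallest p in each direction whose groups do not overlap. Of these 6 probes, 2 lie in CpG islands without a gene symbol, with differences of 3.48 and -4.22. The CCNA2 probe that starts at 3381012 had 2.01, 1.67 and 1.54 in HF and -1.24, -2.06 and -1.47 in SF bulls. A CpG island probe of BCL2, the gene of an anti-apoptotic protein, on chromosome 24 (64196967 to 64197026) had 1.59, 2.17 and 2.22 against -0.99, -1.85 and -2.56. In both, every HF bull lay above 1 and every SF bull below 0. A CpG island probe of the splicing factor gene PRPF31 on chromosome 18 (63542587 to 63542646) had -2.48, -2.93 and -2.25 against 2.46, 0.75 and 1.54. A promoter probe of FHIT, a tumour suppressor at a fragile site, on chromosome 22 (40965868 to 40965927) had -0.92, -0.87 and -2.38 against 2.48, 2.21 and 2.36. The last 3 differences of 3.80, -4.14 and -3.74 had unadjusted p of 0.000203, 0.000144 and 0.000230, and limma's adjusted p was 1 for every one of the 176392 probes.

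Along the longer stretches the bulls kept their order over some bases and lost it over others. In EIF3D, SF5 reached 3.31 early in the stretch and was at most 0.66 in the last 10 probes, and the groups overlapped in 6 of the last 7. In C1QTNF1 the groups stood apart in the last 23 probes, while at the first probe SF5 was the highest bull. In NGDN the groups did not overlap in 14 of 28 probes, and HF5 lay above SF1 in 8.

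**Figure D2:**
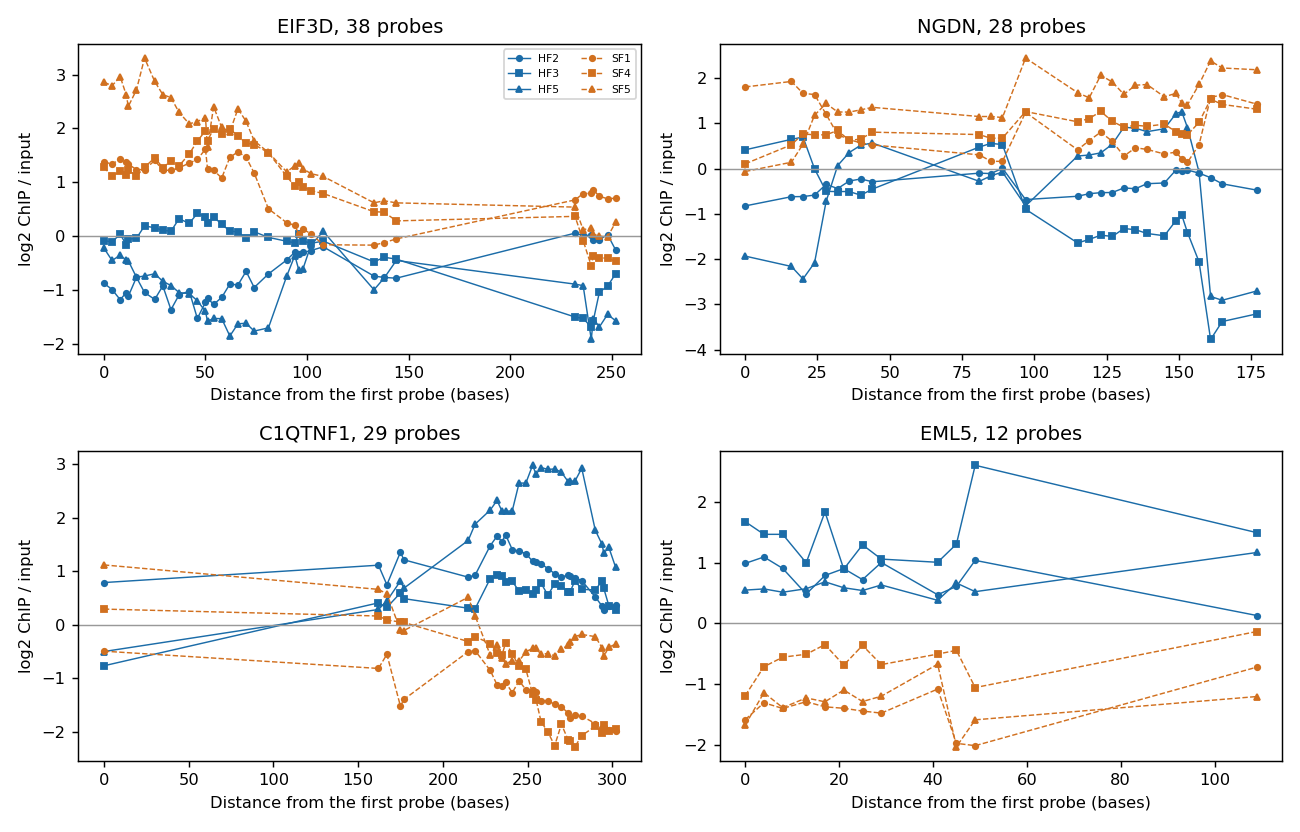
Log2 ChIP over input of each probe (y axis) against the distance of its start from the first probe of the gene in bases (x axis), for EIF3D (38 probes), NGDN (28), C1QTNF1 (29) and EML5 (12); solid blue lines are HF and dashed orange lines SF bulls. EML5 keeps the groups apart in 12 of 12 probes, NGDN in 14 of 28.

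The ratio holds 2 signals, and each is given here on its own. In OXA1L the ChIP signal alone, in log2 units around the array median, was -1.53, -1.65 and -1.95 in HF and 0.54, -0.57 and 0.89 in SF bulls, and the input signal was -0.20, 0.89 and 0.82 against -0.85, -1.31 and -0.39. Each signal alone kept the groups apart, in opposite directions. In CCNA2 the ChIP signal was -0.60, -0.72 and -0.50 against -1.01, -2.29 and -2.42, while the input, at -1.86, -1.87 and -1.04 against 0.10, -1.45 and -1.50, overlapped. In TCTEX1D1 the ChIP signal differed by 0.15 and the input by -1.49. HHATL showed the same order, 0.75 in ChIP and -1.87 in input, and so did EIF3D (-0.59 and 1.23) and CSNK2B (-0.55 and 1.39). PCBD1 and SERPINI1 were the reverse, with ChIP differences of 1.42 and -1.35 and input differences of -0.16 and 0.10. In all 24 genes the input difference had the sign opposite to the ratio, and in 10 it was at least as large as the ChIP difference. The ratio that chose these genes contains both signals, so these counts are descriptions. The same shares over all genes are not given here. Input is DNA cut by micrococcal nuclease and amplified, and its part in the differences was not tested.

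The H3K4me2 arrays of the same bulls, which share the input of each bull, gave differences of the same sign in 20 of these 24 genes. The same share over all genes is not given here, so this count is a description and not a trait of these genes. Examples are EML5, at 2.04 for H3K27me3 and 1.74 for H3K4me2, DNAJB9, at -1.60 and -1.57, and MIR431, at -2.34 and -2.77. The sign was opposite in FAM105B (1.94 and -1.17), RUNDC3A (2.82 and -0.64), C1QTNF1 (2.10 and -0.50) and SERPINI1 (-1.46 and 0.37). The difference of the HF minus SF difference between the marks passed limma's adjusted p of 0.05 in 0 of 6805 genes. That fit took the 2 arrays of a bull as independent, although they share an input. It gave an unadjusted p under 0.05 in 45 genes (0.661%), and its lowest adjusted p was 1.00. With the bull as a block, which takes the sharing into account, 246 genes (3.61%) had such an unadjusted p and 0 passed the adjusted one. No difference given here is called particular to H3K27me3.

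Loci near one another read alike on one array, but the same gene did not read alike in different bulls. Probes under 10 bases apart correlated at r of 0.92 to 0.96 over the 6 arrays, those from 60 to under 100 bases apart at 0.35 to 0.60, and those from 200 to under 500 bases apart at 0.06 to 0.11. Between bulls, gene values correlated at r of -0.07 to 0.11 over 15 pairs with a median of 0.01. The 3 HF pairs ran from -0.07 to 0.02, the 3 SF pairs from -0.02 to 0.03 and the 9 pairs across groups from -0.05 to 0.11, and these ranges overlapped. The channels themselves were shared: before division the ChIP signals of 2 bulls correlated over probes at 0.70 to 0.87 and the inputs at 0.67 to 0.84, values that also hold the brightness of each probe. With the H3K4me2 array of the same bull, which shares its input, the gene values correlated at 0.25 to 0.86, lowest in SF5 and highest in SF1. These correlations run across probes or genes, which share arrays and inputs, and are descriptions.

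**Figure D3:**
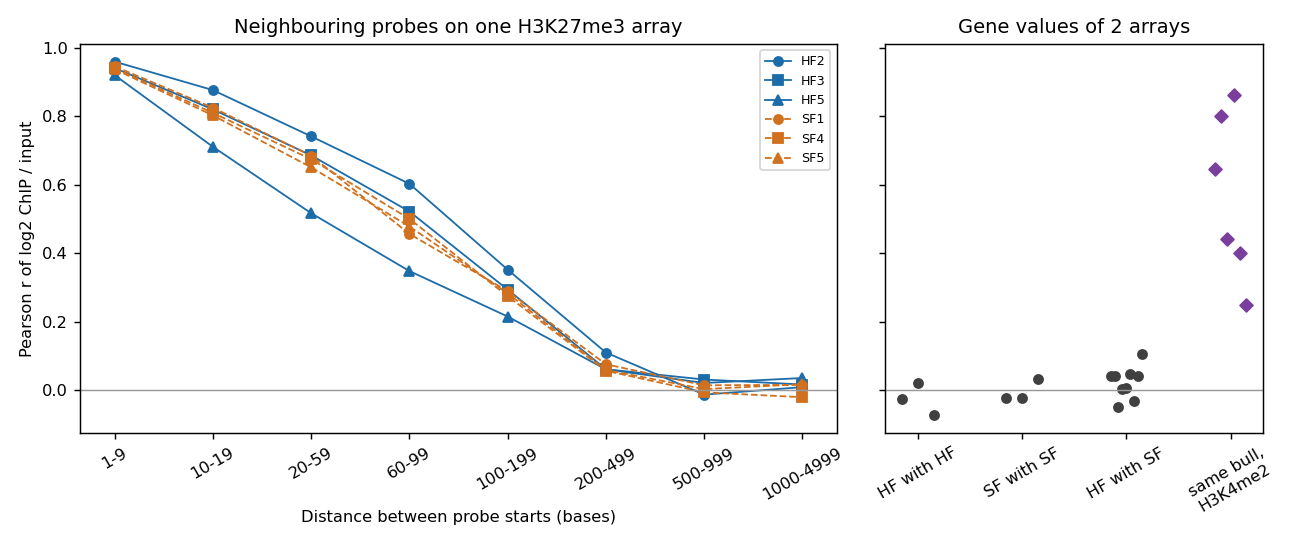
Left, Pearson r of log2 ChIP over input between neighbouring probes on one array (y axis) by the distance between their starts in bases (x axis), 1 line per bull, HF solid and SF dashed; r falls from above 0.9 to near 0 within 500 bases. Right, r of gene values between 2 H3K27me3 arrays (grey) and between the H3K27me3 and H3K4me2 arrays of 1 bull (purple), each point 1 pair; pairs of bulls lie between -0.07 and 0.11.

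Bulls of a group spread less in genes with more separate stretches. Over all genes the within-group SD had a median of 0.60. It was 0.70 in 2001 genes with 1 patch and 0.38 in 483 genes with 5 or more. Of the 24 genes listed above, which were filtered for groups that do not overlap, 18 had 1 patch, against 29.4% of all genes without that filter. The HF bulls spread more than the SF bulls in 60.2% of genes, with median SDs of 0.58 and 0.48. The arrays of HF3 and HF5 were also the widest, with SDs of log2 ratios of 1.32 and 1.28. That of HF2 was the narrowest at 0.736, and those of the SF bulls ran from 0.878 to 1.03. The part of array width in the spread of genes was not tested.

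No gene stood above or below its array median in a way that held after adjustment. Limma's test of the mean of the 6 bulls against 0 called 0 of 6805 genes, with 360 (5.29%) at an unadjusted p under 0.05 and a lowest adjusted p of 0.872. All 6 bulls were above 0 in 111 genes (1.63%) and below 0 in 128 (1.88%). The 3 highest and 2 lowest means of these with at least 10 probes were picked after their values were seen. SEC62, part of the channel that moves proteins into the endoplasmic reticulum, had 1.42, 2.11, 0.75, 1.43, 1.80 and 0.80 in HF2, HF3, HF5, SF1, SF4 and SF5. ABI1, a regulator of actin assembly, had 0.98, 0.47, 2.40, 0.74, 0.57 and 0.53, and the Notch ligand gene DLL3 0.77, 1.92, 0.04, 0.75, 1.10 and 0.98. Among the lowest, the circadian transcription factor gene ARNTL had -0.78, -1.84, -1.26, -0.72, -0.62 and -1.95, and the axon guidance receptor gene ROBO1 -1.80, -1.08, -0.59, -0.72, -0.82 and -1.68. HF and SF bulls were mixed in the order of all 5 genes.

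The antibody label was set against genes that Polycomb is known to cover. Of 52 HOX names listed 21 genes were measured, and their median was -0.03, 0.17 and -0.03 in HF2, HF3 and HF5 and -0.13, -0.31 and 0.21 in SF1, SF4 and SF5. Of the 21, 9, 12 and 9 were above 0 in the HF bulls and 8, 8 and 14 in the SF bulls, and 0 were above 0 in all 6 bulls. HOX medians minus those of 58 ribosomal protein genes, which are active in most cells, were -0.06, 0.08 and -0.10 in HF and -0.08, -0.37 and 0.28 in SF bulls. The median level over the 6 bulls was -0.01 for HOX genes, -0.01 for 104 developmental transcription factors, 0.01 for 44 developmental signalling genes, -0.04 for ribosomal proteins, -0.10 for 35 housekeeping genes and 0.00 for all genes. The developmental medians lay above the ribosomal and housekeeping ones by no more than about 0.1 units, a difference that was not tested, and every value here is that of the libraries labelled H3K27. Of 177372 probes 160659 lie in CpG islands, so the array median is an island median and enrichment common to all islands does not show in these values.

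Single HOX genes varied by bull. In the HOXA cluster, HOXA5, with 187 probes, had -0.24, -0.61 and -0.80 in HF and -0.10, -0.51 and 0.12 in SF bulls, and HOXA9, with 143 probes, 0.25, 0.86 and 0.64 against 0.07, 0.39 and -0.40. HOXA3, with 87 probes, had 0.14, -0.13 and -0.03 against 0.36, -0.14 and 0.17. In the HOXD cluster the spread was wider: HOXD10 had -0.14, 1.31 and -0.48 against -0.48, 0.48 and 2.28, and HOXD11 -0.33, 1.03 and -1.56 against -0.70, -0.43 and -0.02. HOXD12, with 60 probes, had -0.40, 1.22 and 1.39 against -0.38, -0.43 and -1.61; its difference of 1.54 had a 95% confidence interval of 0.18 to 2.90 and an unadjusted p of 0.0306, the groups overlapped, and limma's adjusted p was 1.00. That difference was 0.75 with ChIP alone, 0.79 over a common input and 0.86 with patches weighted equally. HOXB9, with 46 probes, had 0.04, 0.52 and 0.82 against 0.16, -0.55 and -0.39. HOXC12, at 0.27, 0.44 and 0.39 against -0.82, -0.32 and 0.21, was the only HOX gene whose groups did not overlap, 1 of 21 where 8.57% of all genes did not.

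The medians of the Polycomb genes themselves were 0.03, 0.20 and -0.40 in HF and 0.23, -0.04 and -0.04 in SF bulls and overlapped. EZH2 had -0.04, 0.41 and -1.21 in HF and 0.67, -0.07 and -1.0 in SF bulls, EED 0.43, 0.75 and -1.95 against -0.29, -0.37 and -1.52, and SUZ12 -0.17, 0.20 and -0.02 against 0.20, 0.09 and 0.35. In EZH2 and EED the lowest bulls were HF5 and SF5, 1 of each group. RNF2, the ubiquitin ligase of Polycomb repressive complex 1, had 0.03, -0.32 and -0.48 against 1.02, 0.51 and 0.82. Limma's unadjusted p was 0.0220 over 2 promoter probes, and the groups overlapped in each of these probes. Of 15 measured genes of this list 6 had higher and 9 lower HF values, 1 had an unadjusted p under 0.05 (277 of 6805 genes did), and 0 passed limma's adjusted test.

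Across 18 gene lists, 0 members passed limma's adjusted test. Each list is described by its median in each bull, beside 0.06 at most in size for all genes. Lists and members were chosen with earlier results of these data known, so counts of members are descriptions. Germ cell and spermatogenesis genes, 22 measured of 78 listed, had medians of 0.08, 0.09 and 0.16 in HF and -0.17, -0.08 and -0.29 in SF bulls, and the groups did not overlap. Of the 18 lists, only this one and the sperm flagellum list had bull medians that did not overlap. The germ cell difference between the group means of these medians was 0.28. It was 0.04 with the ChIP channel alone, 0.13 after within-array loess and 0.14 with the median over probes. Within the slide shared by HF5 and SF1 it was 0.32 and among the other 4 bulls 0.26. Both had to be positive because the medians do not overlap, so this split is no check on the slide. Of the 22 genes, 12 had higher and 10 lower HF values, and 0 had an unadjusted p under 0.05. The median over genes of HF minus SF was 0.03, near the 0.01 of all genes. In 4 lists this median over genes had the sign opposite to the difference of bull medians, namely HOX (-0.09 and 0.11), developmental signalling (-0.02 and 0.04), imprinted (0.02 and -0.05) and ribosomal protein genes (-0.01 and 0.08). GFRA1, a receptor for GDNF in spermatogonia, had -0.20, 1.38 and 1.33 against 0.36, -0.48 and -0.32, and KIT, the stem cell factor receptor, had 1.01, -0.45 and 0.29 against 0.13, -0.98 and -1.04, so 1 HF bull lay among the SF bulls in each. HSPA2, a chaperone of spermatids with 86 probes, had 0.37, 0.40 and -0.08 against -0.16, -0.40 and -0.11, and was picked because its groups did not overlap. The groups did not overlap in 2 of the 22 genes, with all HF bulls higher, where 8.57% of all genes did not overlap.

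Genes of the mature sperm cell were taken in 2 lists. Sperm flagellum genes, 22 measured, had medians of 0.14, 0.27 and 0.11 in HF and 0.07, 0.09 and -0.34 in SF bulls, with 14 higher and 8 lower, and TCTEX1D1 as the only member of 22 with an unadjusted p under 0.05, where 4.07% of all genes had one. The bull medians did not overlap, as in the germ cell list and no other list. Their difference of 0.23 was 0.067 after within-array loess and 0.095 without SF5. TPPP2, a tubulin-binding protein gene, had 0.68, 0.30 and 1.36 against -0.13, 0.58 and -0.36. Acrosome and fertilization genes, 20 measured, had -0.15, 0.24 and -0.33 against 0.16, 0.10 and 0.14, with 8 higher and 12 lower. ADAM32, a sperm surface protein gene, had -0.77, 0.78 and -2.47 against 0.85, 1.28 and -0.39, a difference of -1.40 that was -0.57 without HF5, -0.87 with patches weighted equally, -2.20 without HF3 and -2.30 with the slide block.

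Imprinted genes, whose parental marks are carried by gametes, lay at -0.01, 0.07 and -0.11 in HF and 0.02, 0.03 and 0.05 in SF bulls over 19 measured genes, 11 higher and 8 lower. BLCAP had -0.74, 0.05 and -1.24 against 0.31, 1.05 and 0.26, an unadjusted p of 0.0330 over 2 probes. PEG10, with 191 probes, had -0.17, 0.22 and -0.11 against -0.41, -0.34 and -0.67, with the groups apart, a difference of 0.45 and an unadjusted p of 0.239. UBE3A, a ubiquitin ligase gene, had -0.45, 0.36 and -1.78 against 0.11, 0.22 and 1.40. KCNQ1, a potassium channel gene with 101 probes, had 0.07, -0.31 and 0.02 against 0.04, -0.06 and -0.02. PEG10 and KCNQ1 were picked for their many probes.

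Genes of basic cell functions gave medians that overlapped between the groups. Ribosomal protein genes had 0.04, 0.09 and 0.07 in HF and -0.05, 0.07 and -0.07 in SF bulls, with 29 of 58 higher. Housekeeping genes, 35 measured, had -0.03, 0.04 and -0.23 against -0.07, 0.01 and 0.01, with 15 higher, 20 lower and 0 at an unadjusted p under 0.05. RPL23A, of the large subunit, had 0.17, 0.68 and 1.95 against -0.19, -1.35 and -0.93, an unadjusted p of 0.0127 over 2 probes. Translation initiation genes had more members with lower than with higher HF values, 19 against 6, where 50.7% of all genes were higher; their medians were -0.06, -0.45 and -0.10 against 0.08, -0.24 and 0.10 and overlapped, and EIF3D was the only member of 25 with an unadjusted p under 0.05, against 4.07% of all genes. Mitochondrial import and insertion genes, 24 measured, had 0.12, 0.02 and -0.45 against 0.10, -0.01 and 0.02, with 11 higher and 13 lower. AFG3L2, a protease of the inner membrane, had 0.90, -0.38 and 0.65 against -0.74, -1.01 and -0.79, with an unadjusted limma p of 0.0217. It rests on 2 probes, and in the 1 measured on every array the groups overlapped. Endoplasmic reticulum stress genes, 25 measured, had 0.29, 0.39 and -0.06 against 0.15, -0.34 and 0.03, with 16 higher and 9 lower. The 2 members with an unadjusted p under 0.05, DNAJB9 and SERP1, were both lower in HF, where 1.84% of all genes were. SERP1, a protector of membrane proteins, had -1.30, -2.08 and -0.06 against 0.15, 0.47 and 0.03. Cell cycle and replication genes had -0.01, 0.32 and -0.07 against 0.20, -0.07 and 0.01 over 62 genes, with 1 higher and 2 lower at an unadjusted p under 0.05, where 2.23% and 1.84% of all genes were.

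Regulators of development gave overlapping medians as well. The 104 developmental transcription factors had -0.01, -0.04 and 0.05 in HF and 0.09, -0.05 and -0.06 in SF bulls, 58 higher and 46 lower. NEUROD1, which drives neuronal and pancreatic islet differentiation, had 0.88, 0.58 and 0.75 against -0.32, -0.07 and -0.02, an unadjusted p of 0.0363 over 25 probes. DLX4, a homeobox gene, had -0.02, -0.12 and -0.85 against 0.29, 0.89 and 0.75. The 44 signalling genes had -0.04, -0.01 and 0.01 against -0.11, 0.00 and -0.04, and the 13 genes of early embryo and pluripotency 0.16, 0.17 and -0.09 against 0.09, -0.09 and 0.15. Of these 13 genes, 10 had higher and 3 lower HF values, where 50.7% of all genes were higher. The 2 of smallest p were both among the lower ones. CDX2, of the trophectoderm lineage, had 0.18, -0.04 and -0.60 against 0.46, 0.68 and 0.57. The maternal gene ZAR1 had -0.79, 0.12 and -0.49 against 0.38, 0.46 and 0.14. Limma's unadjusted p was 0.0902 for CDX2 and 0.105 for ZAR1.

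Markers of other cells that semen can hold were read the same way, though a DNA array sees these loci in any cell type and does not count cells. Leukocyte markers (7 of 27 measured) had medians of 0.20, 0.87 and 0.33 in HF and -0.46, 0.53 and -0.30 in SF bulls, epithelial markers (11 of 25) -0.16, -0.24 and 0.08 against -0.13, -0.05 and 0.29, and somatic testis markers (10 of 27) -0.10, -0.57 and 0.13 against 0.14, 0.19 and -0.43. The groups overlapped in all 3 lists and 0 members had an unadjusted p under 0.05. The leukocyte difference of 0.54 was 0.05 with probes well above background in both channels on all 6 arrays.

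**Figure D4:**
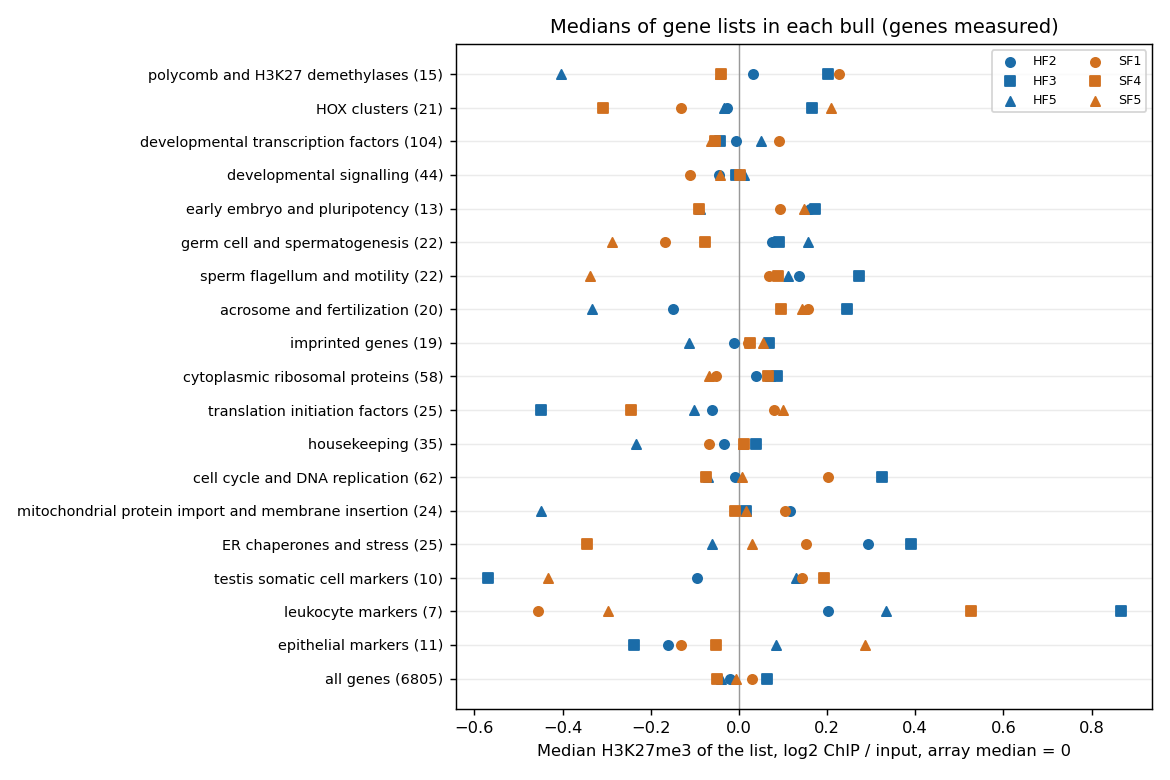
Each row is a gene list with the number of genes measured, each point the median log2 ChIP over input of the list in 1 bull (x axis, array median at 0), blue for HF and orange for SF. HOX clusters and developmental transcription factors lie around 0 like ribosomal protein genes, and the leukocyte list of 7 genes has the widest spread.

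Measures of whole arrays overlapped between the groups, except 1. The exception was the median processed ChIP signal, before centring but after background subtraction and dye normalization. It was 730, 701 and 689 in HF2, HF3 and HF5 and 628, 664 and 681.5 in SF1, SF4 and SF5. The exact two-sided permutation p was 0.1, the smallest that 3 bulls against 3 can reach, and was not adjusted for the number of measures. Without those 2 steps the median ChIP mean signal was 895, 967 and 754 against 1010, 1240 and 530. That signal overlapped and was lower in HF on average, with an exact permutation p of 0.8. The part of the ChIP signal level in the results was not tested. The SD of the log2 ratios was 0.736, 1.32 and 1.28 in HF2, HF3 and HF5 and 0.878, 0.956 and 1.03 in SF1, SF4 and SF5, and the share of probes above 1 was 7.94%, 20.2% and 17.6% against 12.6%, 9.95% and 11.2%. HF2 was the narrowest array and HF3 and HF5 the widest, so the HF bulls enclosed the SF bulls. The median of GC-rich probes (at least 32 of 60 bases) minus that of GC-poor probes (at most 28) was 0.65 in HF5 and lay between -0.21 and 0.22 in the other bulls. The median of 307 X chromosome probes was 0.02, -0.08 and 0.44 in HF and -0.03, 0.08 and 0.37 in SF bulls, high in HF5 and SF5. The exact two-sided permutation test over the 6 arrays gave unadjusted p of 0.2 to 1 and adjusted p of at least 0.84 over 7 measures of the log2 ratios. Between 97.1% and 99.96% of probes on an array had ChIP signal well above background.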

How the data were processed

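The authors' deposited scanner files hold intensity values per spot and colour, background-subtracted and dye-normalized with Agilent Feature Extraction 10.7.3.1 per the file headers, on probes of cattle build HGSC Btau_3.1. Set against the scanner values, the deposited value table gives log2 of ChIP divided by input; its adjustment and centring are not given in the sources used here. Its columns correlated with loess-adjusted ratios at r of 0.983 to 0.996, and their medians were -0.01, 0.09, -0.07, 0.03, -0.01 and -0.02 in HF2, HF3, HF5, SF1, SF4 and SF5. It served as an alternative. Flag and log10 ratio columns are the authors' own, per the file headers.

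Log2 processed Cy5 over Cy3 was centred on each array's median over 177372 of 177440 probes whose input passed the scanner's background test on 6 or more of the 12 arrays; outlier spots were left out. Genes are means over at least 2 probes. Groups were compared with limma 3.58.1 in R 4.3.3 (lmFit, eBayes, two-sided, Benjamini-Hochberg), checked on simulated data. Bulls are separate animals; HF5 and SF1 share a slide, the others lie on slides of their own. Positions of genes are those of the probes; whether a probe lies in an exon or an intron was not analysed here. Of 6805 symbols 5788 matched the buffalo RefSeq table. The number of arrays limits the precision.

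Named genes are the 12 of smallest p per direction with no overlap of groups, the 6 such with at least 10 probes, 2 per list of smallest p, and HOX and Polycomb genes; LOC identifiers and genes spread over more than 1 Mb were left out. Probes are the 3 of smallest p per direction. Members and lists were chosen with earlier results of these data known. Patches, equal weight per patch and centring by GC class were added after seeing the data.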

Additional observations from a re-analysis of the deposited data

How the results depend on the processing

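Limma called 0 genes for HF minus SF under every one of 22 alternatives run, patches in place of genes included, with a lowest adjusted p from 0.13 (arrays scaled to one spread) to 1.00, and 0 probes under 18. Genes at an unadjusted p under 0.05 numbered 179 with at least 5 probes and 614 with slide as a random block, against 277, and from 242 to 391 leaving out 1 bull; probes numbered 15359 with the slide block, against 7599. The slide block used all 12 arrays (correlation 0.483), since 6 arrays on 5 slides gave no estimate. For mark by fertility the bull as a replicate block gave 246 genes at an unadjusted p under 0.05 against 45, and 0 at an adjusted p under 0.05; leaving out 1 bull gave 17 (without SF5) to 71 (without SF1). No paired analysis was possible because HF and SF share only number 5, which names different bulls. The test against 0 called 3778 genes with the ChIP channel alone, where probe brightness is not divided out.

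Differences of named genes that turned sign were EIF4EBP2 (1.04), -0.55 with ChIP alone and -0.52 over a common input, SRSF1 (0.89), -0.093 and -0.059, and CD8A (0.35), from -0.17 (without SF4) to 0.74 leaving out 1 bull. List differences moved as follows. With ChIP alone: HOX -0.12 (from 0.11), developmental transcription factors -0.061 (0.01), early embryo -0.16 (0.03), germ cell 0.041 (0.28), ribosomal -0.074 (0.08), translation initiation 0.024 (-0.18), cell cycle -0.24 (0.04) and leukocyte 0.015 (0.54). Over a common input: developmental signalling -0.020 (0.04), germ cell 0.050, ribosomal -0.013 and ER stress -0.11 (0.26). Developmental signalling, germ cell and imprinted (-0.05) lists gave -0.038, 0.15 and 0.052 with normexp, -0.074, 0.13 and 0.024 with loess, and -0.078, 0.13 and 0.034 in the value table. Medians over probes gave germ cell 0.14 and ribosomal 0.019, at least 5 probes gave signalling -0.035 and housekeeping 0.053 (-0.06), and bright probes only gave leukocyte 0.050. The cause was not tested. Scalings moved the median gene difference to between -0.02 and 0.01.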
